A study of Mus musculus with 6 samples.

Results

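The 10 genes S100a8, S100a9, Cxcr2, Ngp, Camp, Ltf, Lcn2, Retnlg, Mpo and Elane encode proteins that mark neutrophils. They were measured here in cells sorted from mouse heart allografts and labelled as macrophages. The genes were taken from a list of names, and all 10 were found among the 22180 named genes of the deposited table, each on 1 probe set, so no choice between probe sets arose. Between graft macrophages of mTORi-HDL recipients and of untreated recipients, 0 of the 10 passed an adjusted p of 0.05 (limma). Of all 22180 genes 0 passed as well, so the test called no gene of any kind. The calprotectin genes and Retnlg varied most among arrays: S100a9 read 8.66 on 1 untreated array and 4.81 and 5.40 on the other untreated arrays (log2 expression values). The granule genes Ngp, Camp, Ltf, Lcn2, Mpo and Elane spanned 0.99 to 1.61 on the log2 scale over the 6 arrays, and each was highest on a single mTORi-HDL array.

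Donor hearts from BALB/c mice had been grafted into C57BL/6 recipients, a fully mismatched combination. Graft macrophages were collected by flow sorting on day 6 after transplantation. Recipients of 3 samples were given mTORi-HDL, an mTOR inhibitor carried in high-density lipoprotein nanoparticles, at 5 mg/kg on days 0, 2 and 5, and recipients of 3 samples were left untreated and rejected the graft. No group received the carrier alone, neither the sort markers nor the age of the animals is stated in the labels, which also leave unsaid whether a sample is 1 animal or a pool, so p-values measure only the spread between these samples. In such a bulk sample fewer cells of a type and less RNA per cell cannot be told apart.

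Neutrophils store their antimicrobial proteins in granules that are made in sequence while the cell matures in the bone marrow. Primary granules hold myeloperoxidase and serine proteases and are made first, by promyelocytes. Specific granules, with lactoferrin, lipocalin and the cathelicidin, follow, and their transcripts are mostly shut off before the cell enters blood. Calprotectin, the S100A8 and S100A9 heterodimer, is cytosolic, and its transcripts stay abundant in circulating neutrophils and are also made by inflammatory monocytes. Cxcr2 and Retnlg are likewise transcribed in mature neutrophils.

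One array bears on every comparison. The values of mTORi-HDL 1 had an SD of 1.68 over all 41345 probe sets, against 2.04 to 2.09 on the other arrays, and a slope of 0.64 on the mean of the other 5, so dim probe sets read higher and bright ones lower there. It correlated with the others at r = 0.71 to 0.74, and the others with each other at 0.89 to 0.91. The differences between groups are therefore given with and without it. The label of the sorted cells was read against 12 macrophage and 10 T cell markers. Macrophage markers ranged from Cd163, a scavenger receptor, at 2.85 to 3.85 over the 6 arrays, and Mertk, an uptake receptor, at 3.83 to 5.93, to Lyz2, lysozyme, at 10.80 to 11.62. Csf1r, the receptor of a macrophage growth factor, was at 7.54 to 9.08 on the 5 other arrays and 5.00 on mTORi-HDL 1. T cell receptor complex transcripts were bright in these samples. Cd3d was at 10.29 to 11.45 and Cd3e at 9.63 to 10.85 on the 5 other arrays. On mTORi-HDL 1 they were at 8.37 and 6.46. The T cell list mean was 9.18 to 9.33 on the untreated arrays, where the macrophage list mean was 6.40 to 6.75. On mTORi-HDL arrays 1, 2 and 3 the T cell mean was 6.31, 8.13 and 8.18. The macrophage mean was 6.54, 7.48 and 7.90 there. Means over different probe sets do not compare abundance, and the RNA was not free of T cell transcripts.

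The stretch before each start site is shown for 4 genes, because S100a8, S100a9 and Retnlg were high together on 1 untreated array and Ngp is the specific-granule gene with most matches to a C/EBP motif. C/EBP factors direct granule gene transcription, and PU.1 is the myeloid master factor. The sequences are the 250 bases 5′ of the start in RefSeq (build GRCm38.p6), and a window was found there for 10 of 10 genes. In the sequences, capitals mark every match, on either strand, to the C/EBP letters TTGCNNAA (TTNNGCAA on the other strand), the PU.1 core GAGGAA and the TATA box TATAAA. S100a8 lies at chr3:90668821-90669070 on the plus strand and S100a9 at chr3:90695722-90695971 on the minus strand of the same chromosome. Retnlg lies at chr16:48872358-48872607 and Ngp at chr9:110419558-110419807, both on the plus strand.
S100a8: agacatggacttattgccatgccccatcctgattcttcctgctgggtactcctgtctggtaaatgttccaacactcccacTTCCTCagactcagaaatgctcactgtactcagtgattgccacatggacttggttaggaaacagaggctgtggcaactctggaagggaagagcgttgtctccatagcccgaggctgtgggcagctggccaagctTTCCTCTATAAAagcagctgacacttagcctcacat
S100a9: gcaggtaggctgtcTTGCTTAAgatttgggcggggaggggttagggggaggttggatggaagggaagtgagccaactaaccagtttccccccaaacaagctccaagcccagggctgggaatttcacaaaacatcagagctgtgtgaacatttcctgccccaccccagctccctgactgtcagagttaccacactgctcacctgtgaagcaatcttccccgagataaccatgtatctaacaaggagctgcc
Retnlg: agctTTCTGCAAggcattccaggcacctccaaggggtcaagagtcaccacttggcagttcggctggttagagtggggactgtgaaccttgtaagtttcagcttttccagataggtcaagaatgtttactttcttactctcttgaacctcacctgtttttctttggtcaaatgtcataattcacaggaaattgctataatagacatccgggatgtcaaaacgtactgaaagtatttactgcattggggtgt
Ngp: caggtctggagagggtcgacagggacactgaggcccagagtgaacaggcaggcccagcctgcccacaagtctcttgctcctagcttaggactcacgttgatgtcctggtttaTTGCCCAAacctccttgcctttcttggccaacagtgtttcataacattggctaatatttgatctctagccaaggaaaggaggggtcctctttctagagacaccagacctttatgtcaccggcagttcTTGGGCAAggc

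The C/EBP letters were found in 5 of the 10 promoters (S100a9, Ngp, Ltf, Lcn2 and Retnlg), and in 9.56% of the 32851 RefSeq promoter windows of the same length. Ngp had them 2 times, starting 138 and 11 bases before the start, and Ltf had them 75 bases before it. The PU.1 core was found in 6 of the 10 (S100a8, Cxcr2, Ltf, Lcn2, Mpo and Elane) and in 23.3% of all windows. S100a8 had the TATA box, starting 30 bases before the start and next to a PU.1 core with no overlap, as the only one of the 10, against 12.4% of all windows. In these windows no match overlapped a match to another motif. The Camp window held none of the 3 motifs. A match describes letters and is not evidence that a factor bound.

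S100a8 and S100a9 are neighbouring genes whose proteins pair to bind calcium, zinc and manganese. S100a8 read 7.86, 6.35 and 8.92 on mTORi-HDL arrays 1, 2 and 3 and 7.02, 9.57 and 7.68 on untreated arrays 1, 2 and 3. The lowest and the highest value thus lay in the second array of each group, and the groups overlapped over most of their range. The means were 7.71 ± 1.29 with treatment and 8.09 ± 1.32 without (SD, n = 3 each), a difference of -0.38 with a 95% confidence interval of -2.29 to 1.53 (limma, adjusted p = 0.931 over all genes). Without mTORi-HDL 1 the difference was -0.45 (-2.70 to 1.79), and without untreated 2 it turned to 0.36 (-1.45 to 2.17).

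S100a9 read 5.28, 6.04 and 5.79 on the mTORi-HDL arrays and 4.81, 8.66 and 5.40 on the untreated arrays. All treated arrays lay between the lowest and the highest untreated array, and 5 of the 6 values fell between 4.81 and 6.04. The means were 5.71 ± 0.39 with treatment and 6.29 ± 2.07 without (SD, n = 3 each). The difference was -0.59 (95% confidence interval -2.74 to 1.57; limma, adjusted p = 0.910). Without mTORi-HDL 1 it was -0.37 (-2.89 to 2.14). Without untreated 2 it turned to 0.60 (-0.34 to 1.54), so the direction for both calprotectin genes changed with that array. Without mTORi-HDL 2 the difference also turned for S100a8, to 0.30, and was -0.75 for S100a9.

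Retnlg encodes a resistin-like protein of granulocytes. Its values were 6.87, 3.47 and 3.24 on the mTORi-HDL arrays and 2.14, 5.41 and 2.38 on the untreated arrays, the widest span of the 10 genes at 4.73. Each group held 1 high array, mTORi-HDL 1 and untreated 2, and the remaining treated arrays lay above the remaining untreated arrays. The difference over all arrays was 1.21 ± 1.18 (SE; limma, adjusted p = 0.890), and 0.04 ± 0.93 without mTORi-HDL 1. Without untreated 2 it was 2.26 ± 1.09 (limma, adjusted p = 0.9998). With both of these arrays left out, a choice made after the values were seen, 2 treated arrays exceeded 2 untreated arrays by 1.09 ± 0.25 (limma, unadjusted p = 0.00556, adjusted p = 0.392). In that fit 1725 of 22180 genes had an unadjusted p under 0.05. The values compared were dim, at the 32.6 and 25.8 percentile of all genes with treatment and 6.4 and 8.6 without. A dim value cannot be told from background.

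Cxcr2, the receptor through which neutrophils follow CXC chemokines, read 5.63, 4.49 and 4.91 on the mTORi-HDL arrays and 4.60, 4.16 and 4.83 on the untreated arrays. The groups overlapped. The means were 5.01 ± 0.58 and 4.53 ± 0.34 (SD, n = 3 each), a difference of 0.48 (95% confidence interval -0.38 to 1.34; limma, adjusted p = 0.890) that came to 0.17 (-0.50 to 0.85) without mTORi-HDL 1. Its neighbour Cxcr1, the related receptor, was highest on untreated 3 at 5.59 and ranged from 3.25 to 4.23 elsewhere.

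**Figure D1:**
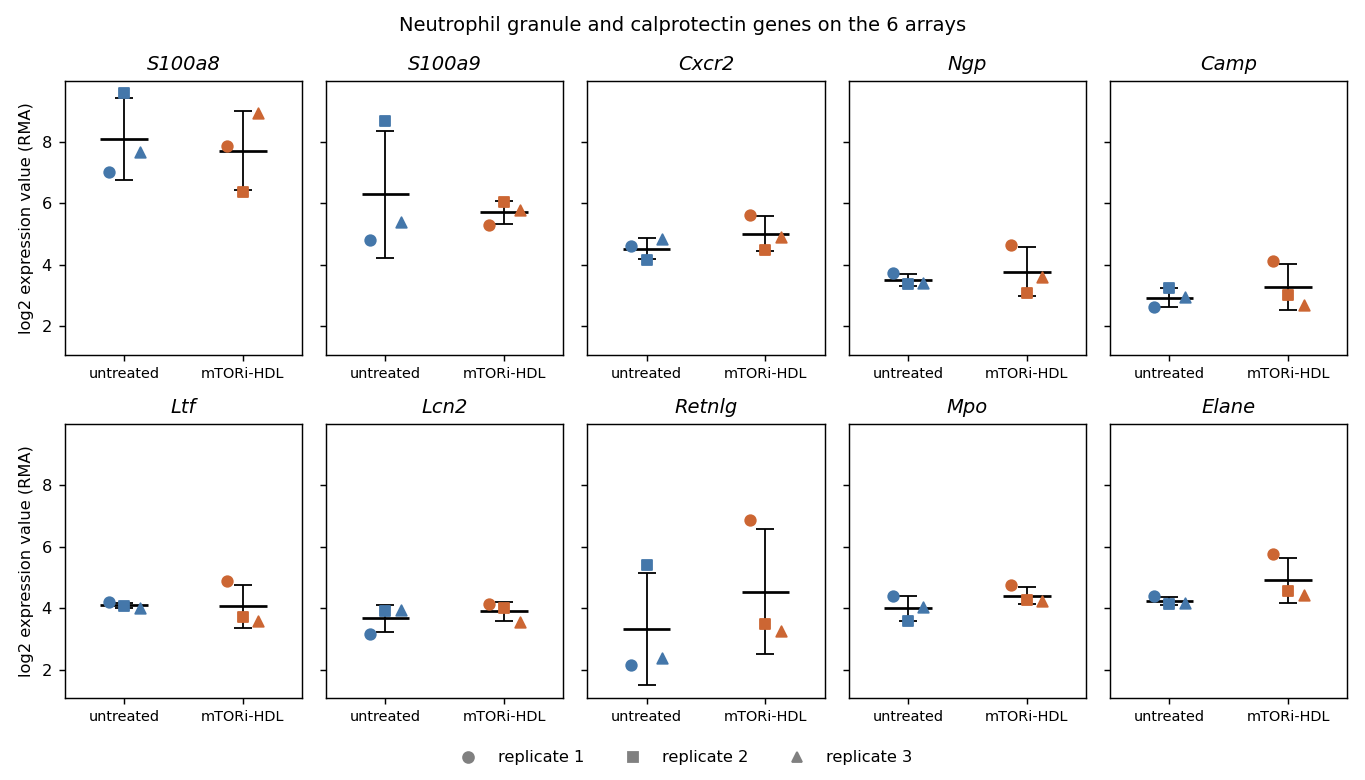
Log2 expression value of each of the 10 genes on each array, by group, with replicates 1, 2 and 3 as circle, square and triangle, a line at the mean and bars of 1 SD (n = 3 each). Untreated replicate 2 stands above the other untreated arrays for S100a8 (9.57), S100a9 (8.66) and Retnlg (5.41), while mTORi-HDL replicate 1 is the highest array for the other 7 genes and for Retnlg.

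Of the specific granule genes, Ngp, a cathelicidin-related granule protein, read 4.65, 3.09 and 3.61 with treatment and 3.75, 3.39 and 3.42 without. Camp, the cathelicidin itself, read 4.12, 3.02 and 2.71 with treatment and 2.61, 3.24 and 2.96 without. For both, mTORi-HDL 1 was highest and the other 5 arrays mixed. Over all arrays the differences were 0.26 (95% confidence interval -0.71 to 1.24) for Ngp and 0.34 (-0.62 to 1.31) for Camp. Without mTORi-HDL 1 they turned to -0.17 (-0.79 to 0.45) and -0.07 (-0.71 to 0.56).

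Ltf, lactoferrin, an iron-binding protein, read 4.87, 3.70 and 3.59 with treatment and 4.19, 4.07 and 4.01 without. The untreated arrays were close together (SD 0.09), with treated array 1 above them and treated arrays 2 and 3 below. The difference of -0.04 (-0.93 to 0.86; limma, adjusted p = 0.987) became -0.45 (-0.94 to 0.05; limma, unadjusted p = 0.0707, adjusted p = 0.757) without mTORi-HDL 1, and both treated arrays then lay below all untreated arrays. Lcn2, a lipocalin that withholds bacterial siderophores, read 4.15, 3.99 and 3.55 with treatment and 3.16, 3.92 and 3.94 without. Its groups overlapped, and its difference was 0.22 (-0.55 to 0.99) over all arrays and 0.09 (-0.67 to 0.85) without mTORi-HDL 1.

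Of the primary granule genes, Mpo, myeloperoxidase, which makes hypochlorous acid, read 4.74, 4.25 and 4.23 with treatment and 4.38, 3.57 and 4.02 without. Elane, neutrophil elastase, read 5.75, 4.54 and 4.43 with treatment and 4.38, 4.14 and 4.17 without. Elane was the 1 gene of the 10 whose groups did not overlap over 6 arrays, with the lowest treated value just above the highest untreated one. Its difference was 0.68 (95% confidence interval -0.24 to 1.59; limma, unadjusted p = 0.125, adjusted p = 0.890), and 0.26 (-0.25 to 0.77) without mTORi-HDL 1. Mpo had a difference of 0.42 (-0.32 to 1.15) over all arrays and of 0.25 (-0.43 to 0.93) without that array.

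In the comparison across genes 0 of the 10 passed an adjusted p of 0.05 in limma, where 0% of all 22180 genes did, and 0% again without mTORi-HDL 1. At an unadjusted p under 0.05 the count was 0 of 10 in both fits. Over all genes that threshold was met by 1.57% as higher and 3.07% as lower, and without mTORi-HDL 1 by 3.47% and 3.51%. Groups that did not overlap were found for 1 of 10 genes in the higher direction (Elane) and 0 of 10 in the lower, against 5.37% and 5.53% of all genes. Without mTORi-HDL 1 they were found for Elane as higher and Ltf as lower, against 9.75% and 12.5% of all genes. The 10 genes had a median difference of 0.30 with all arrays and of -0.02 when mTORi-HDL 1 was left out, where that of all genes was 0.08 and -0.03. Higher and lower genes numbered 7 and 3 of the 10 over all arrays and 5 and 5 without mTORi-HDL 1. Among all 22180 genes they numbered 12901 and 9279 over all arrays, and 10333 and 11847 without mTORi-HDL 1. The intervals leave room for sizeable changes of calprotectin and Retnlg in either direction at 3 arrays a group, and are narrower for the granule genes. Each granule gene had a mean under 5 on the 5 arrays other than mTORi-HDL 1, where a value cannot be told from background. Cxcr2 and Retnlg also had means under 5 on those arrays, at 4.60 and 3.33. A narrow interval at such a level is not evidence that a transcript was unchanged.

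**Figure D2:**
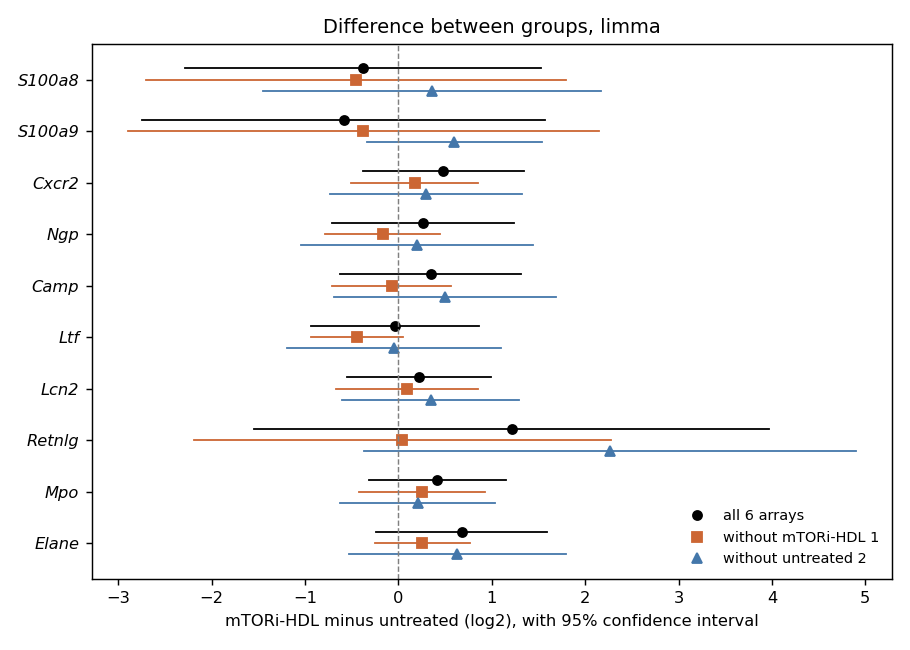
Difference between mTORi-HDL and untreated arrays (log2) for each gene, with the 95% confidence interval from limma, over all 6 arrays (circles), without mTORi-HDL 1 (squares) and without untreated 2 (triangles). Every interval drawn includes 0, and the symbols for S100a8 and S100a9 move from below 0 to above 0 when untreated 2 is left out (0.36 and 0.60).

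The array mTORi-HDL 1 was the highest of the 6 for 8 of the 10 genes, all but S100a8 and S100a9. It was the highest for 45.2% of all genes, and for 60.9% of the 15243 genes with a mean under 5 on the other 5 arrays, a group that held those same 8 genes. Against the mean of the other 5 arrays the 8 lay higher by a median of 1.11, where all genes with a mean under 5 lay higher by 0.52 and 80% of them fell between -0.23 and 1.27. Lcn2, Mpo, Ltf, Cxcr2, Ngp and Camp were within that range, at 0.44 to 1.21. Elane, at 1.41, was a little beyond it and Retnlg, at 3.54, far beyond. S100a8 was within 0.05 of the other arrays' mean and S100a9 was 0.86 below, where genes with a mean of 5 or more lay at a median of -0.98.

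**Figure D3:**
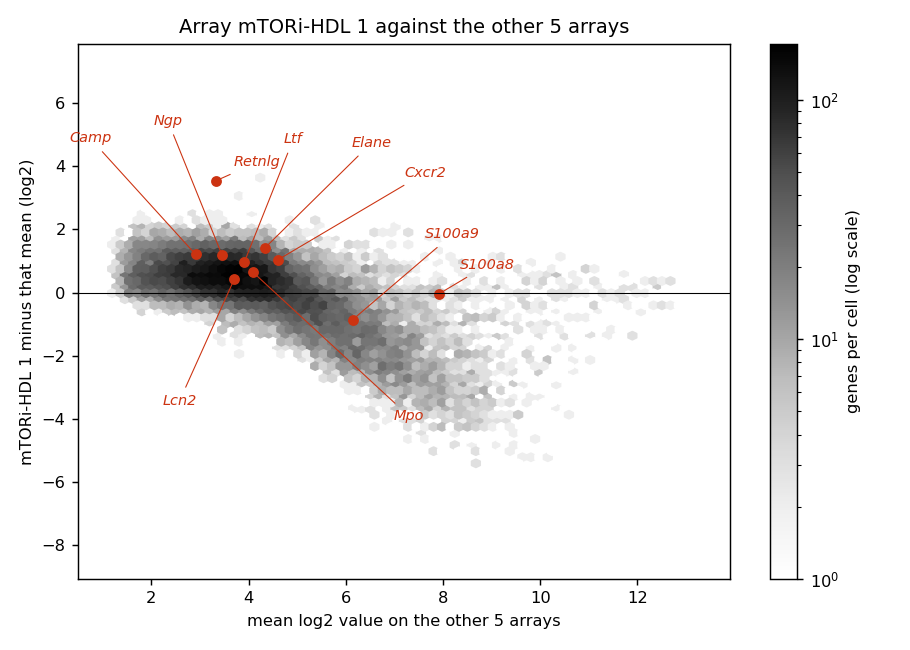
Value on mTORi-HDL 1 minus the mean of the other 5 arrays (vertical axis, log2) against that mean (horizontal axis, log2), for all 22180 genes as a density on a log scale, with the 10 genes in red. The cloud slopes from above 0 for dim genes to below 0 for bright ones, 7 granule and receptor genes lie in or at the edge of the dim part, Retnlg lies above it at 3.54, and S100a8 lies at -0.05.

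The rank of a gene within its array was read as well. S100a8 stood at the 97.1, 84.0 and 97.1 percentile of all genes on mTORi-HDL arrays 1, 2 and 3 and at the 89.6, 98.0 and 93.0 percentile on the untreated arrays. S100a9 stood at 79.7, 81.3 and 78.9 with treatment and at 64.8, 96.2 and 74.3 without, so that the mean percentile was 1.53 points higher with treatment while the mean log2 value was lower. Retnlg stood at the 95 percentile on mTORi-HDL 1 and at 32.6 and 25.8 on treated arrays 2 and 3. It stood at 6.4, 73.7 and 8.6 on the untreated arrays. Its excess on mTORi-HDL 1 and on untreated 2 was also seen in ranks. The percentiles follow 1 probe set from array to array and do not compare abundance between genes.

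The array untreated 2 held a second pattern. S100a9, Retnlg and S100a8 lay 3.55, 3.15 and 2.22 above the mean of untreated arrays 1 and 3, while the other 7 genes lay between -0.62 and 0.45 of it. An excess of 1 or more there was thus found for 3 of 10 genes, against 3.76% of all genes, and untreated 2 was the highest array for 2 of 10, against 11.4% of all genes. Among mature neutrophil genes 7 of 22 had such an excess, led by Gca, grancalcin, at 5.96 against 2.88 and 2.14, Stfa2l1, a stefin, at 5.21 against 2.17 and 2.71, and Clec4d, a myeloid lectin, at 6.79 against 3.57 and 4.77. Among specific and gelatinase granule genes 4 of 14 had it, led by Hp, haptoglobin, at 8.18 against 5.39 and 5.33, and Chil3, a chitinase-like protein, at 6.00 against 3.70 and 3.39.

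Other genes of the neutrophil lists did not share the excess, and neither did Cxcr2. Cxcr2 read 4.16 on untreated 2 and 4.60 and 4.83 on the other untreated arrays, and Cxcr1 read 3.25 against 4.23 and 5.59. Of 8 further primary granule genes 0 had it, but Prtn3, Ctsg, Ms4a3, Prss57 and Bpi were dim, at 2.67 to 4.86 on the untreated arrays. Ly6g, the surface marker used to gate neutrophils, read 3.28 on untreated 2 and 3.06 and 3.26 on the other untreated arrays. Ly6g was dim on all 6 arrays (2.971 to 3.715), and a dim value cannot be told from background. Csf3r, the receptor of the granulocyte growth factor, read 5.26 against 5.41 and 5.19, and Cd177, a neutrophil surface protein, read 3.20 against 4.07 and 3.93. Cd177, Cxcr1 and Cxcr2 were also dim on untreated 2, so a lack of excess in such genes says little. Of monocyte markers 2 of 11 had the excess, Cd14 and Thbs1, and of macrophage markers 1 of 12, Mertk. A place in a neutrophil list does not show which cells made a transcript. These genes were picked out after their values were seen, and what the sample held was not tested.

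**Figure D4:**
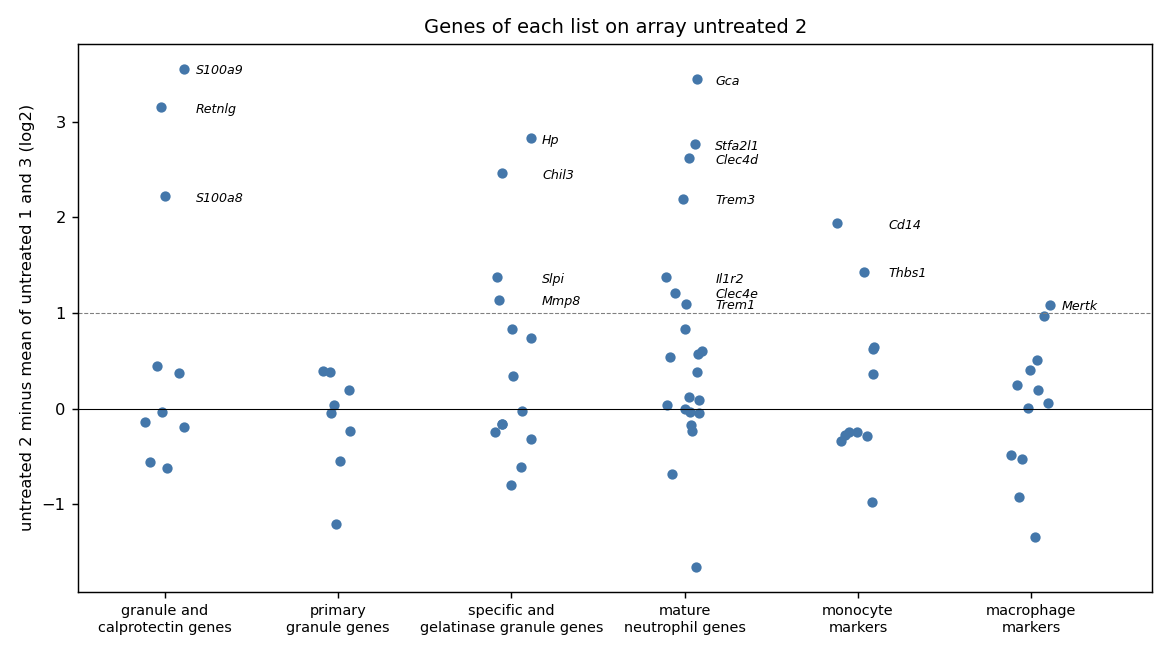
Value on untreated 2 minus the mean of untreated 1 and 3 (log2), 1 point per gene with points spread sideways for legibility, for the 10 genes and 5 other lists; names are given for points at 1 (dashed line) or above. S100a9 (3.55), Retnlg (3.15) and S100a8 (2.22) stand apart from the other 7 genes, and 7 of 22 mature neutrophil genes, 4 of 14 specific and gelatinase granule genes and 0 of 8 primary granule genes are at 1 or above.

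The 10 genes did not all follow 1 pattern on these arrays. Across 6 arrays 35 of their 45 pairs correlated above 0, and 19 of 45 did once mTORi-HDL 1 was left out. No share for other gene pairs was computed. Of the 10 genes 8 had a mean under 5 on the other 5 arrays, and dim genes in general read higher on mTORi-HDL 1. Every pair except S100a8 with S100a9 included such a dim gene. Without mTORi-HDL 1, S100a9 and Retnlg had r = 0.98 over 5 arrays, with untreated 2 highest for both, and r = 0.40 over 6. S100a8 and S100a9 had r = 0.66 over 6 arrays and 0.68 over 5. All these values are descriptions over arrays that share a normalization. The genes most like S100a8 over 6 arrays among 13833 genes spanning 1 or more were 4833418N02Rik (r = 0.99) and Atp6v1f, a proton pump subunit (0.97), and those most like S100a9 were Cd2bp2 and Rnh1 (both 0.98). Those most like Ngp were Kncn and Gm26705, and most like Elane were Itih1 and the olfactory receptor gene Olfr1045 (r at least 0.99 for each). Without mTORi-HDL 1 the r for Elane was 0.97 with Itih1 and 0.96 with Olfr1045, and for Ngp it was 0.99 with each. The highest of so many correlations over 6 arrays are near their limit by selection, and they are no evidence of shared regulation.

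The other genes of the pathway were read from lists in the same fit, and 0 of them passed an adjusted p of 0.05. The signs and counts that follow describe these arrays, and no gene is called changed. Counts at an unadjusted p under 0.05 stand against 1.57% of all genes as higher and 3.07% as lower over 6 arrays. Without mTORi-HDL 1 these shares were 3.47% and 3.51%. Groups that do not overlap over 6 arrays stand against 5.37% of all genes as higher and 5.53% as lower. In the primary granule list 1 of 8 genes had an unadjusted p under 0.05 as higher and 0 as lower. This was Cd63, a granule and lysosome membrane protein also made by macrophages, at 8.13 ± 0.34 with treatment and 6.42 ± 1.25 without (SD, n = 3 each). Its difference came to 1.71 with all 6 arrays and to 1.90 without mTORi-HDL 1, where the list count was 2 of 8 as higher, with Ctsc. Prtn3, proteinase 3 and the neighbour of Elane, read 5.67, 4.55 and 5.06 with treatment and 4.37, 4.71 and 4.65 without. Prtn3, Ctsg and Serpinb1a had differences of 0.52, 0.48 and 0.81, and of 0.23, 0.14 and 0.64 without mTORi-HDL 1. The list had a median difference of 0.46 with all arrays and of 0.19 when mTORi-HDL 1 was left out.

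In the specific and gelatinase granule list 0 of 14 genes had an unadjusted p under 0.05 as higher and 1 as lower. This was Pglyrp1, a peptidoglycan recognition protein, at 7.40 ± 0.57 with treatment and 8.39 ± 0.27 without (SD, n = 3 each), with groups that did not overlap, and a difference of -0.99 over all arrays and -1.27 without mTORi-HDL 1 (limma, unadjusted p = 0.0251 and 0.00284, adjusted p = 0.890 and 0.346). Mmp25, a membrane-bound metalloproteinase, had a difference of 0.88 and of 1.51 without mTORi-HDL 1 (limma, unadjusted p = 0.146 and 5.96e-04). Mmp9 and Slpi had differences of 0.65 and 0.88, and of 0.39 and 0.70 without that array, where the list held 1 gene as higher and 1 as lower.

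In the mature neutrophil list 3 of 22 measured genes, of 26 listed, had an unadjusted p under 0.05 as higher and 0 as lower. Lrg1, a secreted glycoprotein, was at 5.88 ± 0.78 with treatment and 4.51 ± 0.30 without (SD, n = 3 each), with groups apart. Clec4d was at 7.22 ± 0.67 and 5.04 ± 1.63, and Wfdc21 was at 4.14 ± 0.87 and 3.03 ± 0.40. Stfa3 had a difference of -0.67. Without mTORi-HDL 1 the differences were 1.22 for Lrg1, 2.04 for Clec4d, 1.58 for Wfdc21 and -0.58 for Stfa3. Clec4d then had an unadjusted p of 0.0579 in limma, and 4 of 22 genes were under 0.05 as higher (Lrg1, Wfdc21, Csf3r and Il1r2, a decoy receptor). Stfa1, another stefin, named after its values were seen, read 9.69 on mTORi-HDL 1 and 2.65 to 3.91 on the other 5 arrays, so that Retnlg was not the only neutrophil-list gene far above the rest there. The list had a median difference of 0.10 with all arrays and of 0.04 when mTORi-HDL 1 was left out.

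Of 6 ligands of CXCR2, 3 had an unadjusted p under 0.05 as higher and 0 as lower. Cxcl2 read 9.64, 8.50 and 8.87 with treatment and 6.95, 8.68 and 6.92 without, with untreated 2 again above the other untreated arrays. Cxcl3 read 7.03, 3.41 and 6.25 against 2.68, 4.27 and 3.04. Cxcl1 read 4.67, 5.57 and 4.78 against 4.29, 4.42 and 4.03, and was the 1 ligand whose groups did not overlap. Their differences were 1.49, 2.24 and 0.76 (limma, adjusted p = 0.890 for each), and Cxcl15 had 0.28. Without mTORi-HDL 1 they were 1.17 for Cxcl2, 1.503 for Cxcl3 and 0.93 for Cxcl1, and Cxcl15 turned to -0.19. Of the 6 ligands Cxcl1 alone then had an unadjusted p under 0.05 (limma, 0.0179).

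Among growth factors and attractants of granulocytes 2 of 9 genes had an unadjusted p under 0.05 as higher and 0 as lower. Alox5ap, which serves leukotriene synthesis, was at 9.69 ± 0.54 with treatment and 8.26 ± 0.52 without, and Il17a, a cytokine that raises neutrophil supply, was at 4.63 ± 0.87 and 3.27 ± 0.08 (SD, n = 3 each). Il23a and Csf2 had differences of 0.48 and -0.52. Without mTORi-HDL 1 the 4 differences were 1.24 for Alox5ap, 1.10 for Il17a, 0.19 for Il23a and -0.60 for Csf2, and 3 of 9 genes were under 0.05 as higher, with Il1b, an inflammatory cytokine, as the third. Of 8 granulocyte transcription factors 0 had an unadjusted p under 0.05. Cebpe, which drives specific granule genes, read 4.28, 3.61 and 3.76 against 4.31, 4.05 and 3.87, a difference of -0.19 that was -0.39 without mTORi-HDL 1. Cebpa, Cebpb and Myb had differences of 0.80, 0.43 and -0.95, and of 0.83, 0.21 and -0.17 without that array, where the count was again 0 of 8.

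Of 10 receptors and partners of the member proteins 0 had an unadjusted p under 0.05 over 6 arrays. Tlr4, a receptor for calprotectin, read 4.88, 5.66 and 6.96 with treatment and 5.68, 5.51 and 5.45 without. P2rx7, Lrp1, Cd14 and Bsg had differences of -0.84, 0.55, 1.16 and -0.80, and of -0.56, 0.74, 1.40 and -0.10 without mTORi-HDL 1. The count was then 1 of 10 as higher, Lrp1 (limma, unadjusted p = 0.0394). Tlr4 had differences of 0.28 and 0.76. Among 14 other S100 genes 0 had an unadjusted p under 0.05 as higher and 1 as lower, S100a10, an annexin partner, at 9.89 ± 0.92 and 11.11 ± 0.38 (SD, n = 3 each). S100a10, S100a13, S100a1 and S100a5 had differences of -1.22, -2.09, 0.55 and 0.52, and of -0.71, -0.53, 0.79 and 0.84 without mTORi-HDL 1. The counts were then 2 of 14 as higher (S100a1 and S100a5) and 0 as lower. S100a7a, the gene on the other side of S100a8, had a difference of 0.05, and of -0.11 without that array.

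Markers of other cells were read beside these values, as the mean of each list relative to the untreated mean. The 10 genes lay at 0.92, -0.17 and 0.03 on mTORi-HDL arrays 1, 2 and 3 and at -0.36, 0.55 and -0.18 on the untreated arrays. Eosinophil markers (7 of 8 measured) lay at 0.54, -0.16 and 0.05 on treated arrays 1, 2 and 3, and erythroid and platelet markers (5 of 9 measured) at 1.11, -0.02 and 0.03. Fibroblast markers lay at 1.18, 1.28 and 1.06 on the treated arrays, cardiomyocyte markers at 0.74, 0.68 and 0.07, and mast cell and basophil markers at 0.49, 0.46 and 0.95. The eosinophil list and the erythroid and platelet list were thus high on mTORi-HDL 1 alone among the treated arrays, and the fibroblast list on all 3. Dim genes in general read higher on mTORi-HDL 1. Genes with a mean under 5 on the other 5 arrays lay above that mean by a median of 0.52. In the erythroid and platelet list Pf4 read 8.454 on mTORi-HDL 1 and 4.775 to 5.959 on the other 5 arrays. NK cell markers lay at -1.55, -0.28 and -0.45 and B cell markers at -1.53, -0.45 and -0.94. Dendritic cell markers lay at -0.03, 0.77 and 0.34 and endothelial markers at -0.004, 0.42 and 0.34. Monocyte markers lay at -0.21, 0.70 and 1.83 on the treated arrays and at 0.16 on untreated 2, and macrophage markers at -0.04, 0.90 and 1.32 and at 0.01. T cell markers (10 of 11 measured) lay at -2.94, -1.12 and -1.07 on the treated arrays and within 0.09 of the untreated mean on the untreated arrays. Log2 values of this kind have no true 0, so no marker can be called absent, and the part of other cells in the values of the 10 genes was not tested.

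**Figure D5:**
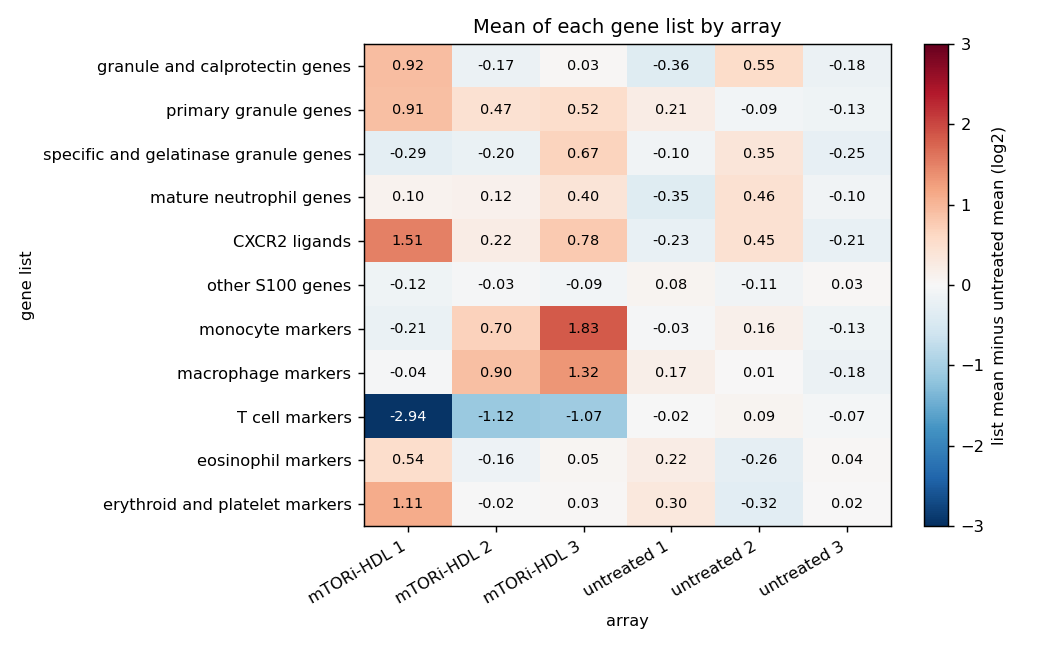
Mean log2 value of each gene list on each array minus its mean over the 3 untreated arrays (colour and printed number), for the 10 genes, 5 lists of related genes and 5 lists of cell markers. The 10 genes are highest on mTORi-HDL 1 (0.92) and untreated 2 (0.55), while T cell markers are at -2.94 on mTORi-HDL 1 and 0.09 on untreated 2.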

How the data were processed

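Per the labels, 15 ng of RNA per sample was made into biotin-labelled cDNA for 1 array each. The deposited table holds log2 values of 41345 probe sets on 6 arrays, which, per the submitters' processing notes, came from RMA in Affymetrix Expression Console, no versions given. Spreads differ between arrays as deposited. No value was missing, 0 pairs of arrays were identical, and the table gives no detection calls, so a dim value cannot be told from background.

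Probe sets with exactly 1 gene symbol in the platform annotation (23521 of 41345) were kept, and the one with the highest mean over 6 arrays stood for each gene, which left 22180 genes. Identifiers of 10 of 10 members were found in RefSeq (GRCm38.p6) under the same symbol. The test was two-sided limma (version 3.58.1, under R 4.3.3): lmFit with a group term alone, then eBayes, on 4 residual degrees of freedom, or 3 without mTORi-HDL 1, with Benjamini-Hochberg adjustment over all genes and no filter. The fit was tested on simulated data in which no array was compressed, so that test does not cover an array like mTORi-HDL 1. Differences are mTORi-HDL minus untreated on the log2 scale. From each related list the 4 genes with the smallest p at most were named. Csf1r, Lyz2, Cd163, Mertk, Cd3d, Cd3e, Cxcr1 and Tlr4 were named after their values were seen. So were Ctsc, Csf3r, Il1r2, Il1b, Cebpe, S100a7a, Stfa1, Pf4 and the genes listed for untreated 2. Pattern likeness was the 2 highest Pearson correlations per gene. Alternatives covered scaling, variance model, array weights, dim-gene filters, probe set choice, percentile ranks, the replicate block and each array left out. The members, lists and alternatives were chosen with earlier results of these data known.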

Additional observations from a re-analysis of the deposited data

How the results depend on the processing

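The sign of the difference was not stable for 8 of the 10 genes, and none passed adjustment under any alternative: over 204 values 179 kept their sign, 25 turned and 0 were called, with adjusted p from 0.392 upward (limma). Mpo and Elane kept theirs in all 20 fits each and in percentiles. Over 6 arrays the trend and robust fit, the replicate block, the probe set choices and the dim-gene filters could not change a difference. Each member has 1 probe set and the design is balanced, so values under these settings kept their sign by construction. Without mTORi-HDL 1 the trend and robust fit also left each difference as in the plain fit. Over the fits that leave out 1 array each, differences ranged from -0.98 to 0.36 for S100a8, -1.33 to 0.60 for S100a9, -0.17 to 0.61 for Ngp, -0.073 to 0.63 for Camp, -0.45 to 0.19 for Ltf, -0.034 to 0.40 for Lcn2 and 0.042 to 2.26 for Retnlg, 0.17 to 0.74 for Cxcr2, 0.21 to 0.61 for Mpo and 0.26 to 0.91 for Elane, and genes without overlap numbered 1 to 2 of 10, where the share over all genes was 17.9% to 22.8%. Cyclic loess turned S100a8 to 0.088, and the mean percentile turned S100a9 to 1.53 points. Array weights, 0.15 for mTORi-HDL 1, turned Ngp to -0.076 and Camp to -0.031 and brought the genes past adjustment from 0 to 1, H2bc12 (log2 fold change -2.89, adjusted p = 0.02). Without mTORi-HDL 1, quantile normalization gave Ngp -0.17 and Camp -0.085, and the trend and robust fit gave -0.17 and -0.073, with 2 genes without overlap in each (all genes 22.5% and 22.3%). Without mTORi-HDL 1 and untreated 2, chosen after the data were seen, S100a8, S100a9, Cxcr2 and Ngp turned to 0.29, 0.81, -0.013 and -0.23, Ltf was at -0.458, and 4 of 10 genes did not overlap, against 37.6% of all genes. The causes were not tested. Filtering dim genes left 5 of the 10 members with a median filter and 9 with a 25th percentile filter.

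The replicate numbers are shared by both groups, but deviations of same-numbered arrays correlated at 0.14, 0.14 and -0.02, so they were not taken as pairs. With the replicate block 0 genes passed and the 10 differences were as without it (S100a9 -0.59, adjusted p = 0.868), with 1183 genes at an unadjusted p under 0.05 against 1029. With the replicate block and without mTORi-HDL 1, Ngp, Camp, Lcn2 and Retnlg were at -0.057, -0.23, -0.16 and -0.54, and 2 genes did not overlap (all genes 22.3%).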
